A study of Mus musculus with 25 samples.

Results

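The hypoxia and glycolysis genes described here are Slc2a1, Pgk1, Ldha, Pdk1, Car9, Vegfa, Adm, Egln3, Bnip3 and Ndrg1. They were taken by symbol from the count table, in which each of the 10 had 1 row among 55450 genes, and all 10 passed the filter on low counts that left 18031 genes for testing. The tumours were grown from the mouse melanoma line B2905, also named M4, implanted in C57BL/6 mice, so all 25 tumours share 1 cell line and host strain. The 5 controls received isotype control IgG2b, and the other 20 tumours received anti-CTLA-4, an antibody against a receptor that restrains T cells, both at 10 mg/kg, dosed 2 times a week over 2 weeks from an average tumour size of 75 mm3. By the size change recorded 10 to 11 days after the last dose, the anti-CTLA-4 tumours were 6 non-responders, which grew, 6 stable tumours and 8 responders, which shrank. The anti-CTLA-4 arm held 30 mice, so these group sizes are not the outcome of the whole arm. The sources used here state neither mouse ages nor the time between outcome and harvest. Nothing in the labels pairs the tumours, and each is taken as a separate animal.

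Cells short of oxygen stabilise hypoxia-inducible factor (HIF), a transcription factor whose alpha subunit is otherwise marked for destruction by prolyl hydroxylases. HIF binds short DNA motifs called hypoxia response elements and raises transcription of genes for glucose uptake, glycolysis, acid export, vessel growth and mitochondrial turnover. Solid tumours often hold poorly perfused areas in which these genes are high, and several of them also respond to growth factor signalling, cell type and inflammation. In whole tumours, fewer cells of a type and less RNA per cell cannot be told apart.

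The core of the hypoxia response element was searched for as ACGTG and as GCGTG, on both strands, in the 250 bases before each annotated start. RefSeq promoters (GRCm38.p6) matched 9 of the 10 genes, with 12 starts. ACGTG was found at a start of 7 of the 9 genes (7 of the 12 promoters), against 16.6% of 32851 mouse promoters, and either motif at 10 of the 12 promoters against 38.6%. The ACGTG matches of Slc2a1, Car9 and Vegfa reached into or past an annotated exon of the same gene. The promoters with the most ACGTG matches were those of Ldha, Pgk1 and Bnip3. They are shown because they held the most matches. The sequences run 5′ to 3′ on the strand of the gene and stop where an annotated exon begins, and capitals mark ACGTG on either strand; CACGTG holds a match on each strand. They cover chr7:46845554-46845803 (plus strand) for Ldha, chrX:106186850-106187099 (plus strand) for Pgk1 and chr7:138909520-138909756 (minus strand) for Bnip3.
Ldha: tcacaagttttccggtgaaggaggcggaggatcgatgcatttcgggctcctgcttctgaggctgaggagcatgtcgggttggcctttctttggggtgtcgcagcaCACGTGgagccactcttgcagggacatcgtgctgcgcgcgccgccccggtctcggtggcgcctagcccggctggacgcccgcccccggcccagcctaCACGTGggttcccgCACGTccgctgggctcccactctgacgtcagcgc
Pgk1: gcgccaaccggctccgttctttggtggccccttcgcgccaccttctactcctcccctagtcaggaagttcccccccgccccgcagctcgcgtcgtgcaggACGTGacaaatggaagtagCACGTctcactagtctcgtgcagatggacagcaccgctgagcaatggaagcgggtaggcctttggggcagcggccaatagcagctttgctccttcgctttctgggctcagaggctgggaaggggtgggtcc
Bnip3: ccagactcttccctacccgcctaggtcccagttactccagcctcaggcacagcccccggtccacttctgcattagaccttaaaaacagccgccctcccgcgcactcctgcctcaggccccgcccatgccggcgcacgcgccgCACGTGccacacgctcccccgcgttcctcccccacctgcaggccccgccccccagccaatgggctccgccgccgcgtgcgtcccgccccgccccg
The Ldha stretch held 5 matches in 3 separate places and the Pgk1 stretch 2 matches in 2 places. The 2 matches of Bnip3 form 1 CACGTG, and that promoter also held 3 GCGTG matches. The promoter at the upstream start of Vegfa held neither motif in these 250 bases, while that at its other start held 1 ACGTG and 1 GCGTG match. These matches are letters in a window, and no binding was measured.

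Levels were expressed as CPM (counts scaled by TMM-adjusted library size) within a gene, and as the authors' deposited RPKM (reads per kilobase of gene and per sequencing depth) between genes. Per length, the mean over 25 tumours was 243 RPKM for Ldha and 238 RPKM for Pgk1, followed by Bnip3 at 71.5 RPKM, Slc2a1 at 31.8 RPKM, Vegfa at 30.6 RPKM and Ndrg1 at 27.2 RPKM. Pdk1 (15.8 RPKM), Car9 (7.72 RPKM), Egln3 (7.02 RPKM) and Adm (2.21 RPKM) were lower. The genes of glycolysis were thus the most abundant of the 10 and the peptide hormone gene Adm the least. Car9 had by far the widest range over tumours, from 1.08 to 120.0 CPM, a 111-fold span, while the other 9 genes spanned from 4.38-fold (Vegfa) to 9.64-fold (Bnip3). In RPKM the Car9 span was 46.7-fold. The lowest counts behind any value were 5 for Adm and 12 for Car9, both in responders.

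Total counts ranged from 8764595 to 34311333 per tumour. Protein-coding genes took 82.9% to 89.2% of counts in the 17 tumours that were not responders, 87.0% in responder 5 and 23.8% to 74.3% in the other 7 responders, with responders 1 (23.8%) and 4 (54.2%) the lowest. Every comparison with responders carries this difference. The number that opens each column name runs group after group, but the sources used here do not state what it counts. If it is an order of processing, that order and group cannot be told apart. Marker lists also moved with the groups. The summed level of 8 melanocytic markers was 10684 to 17512 CPM in controls, 726 to 14062 CPM in non-responders, 228 to 505 CPM in stable tumours and 304 to 725 CPM in responders, and none of the 8 was at 0 in any group. The melanocytic identity of the implanted line was therefore seen in controls and part of the non-responders and was low elsewhere. The summed level of 8 proliferation markers was 948 to 1329 CPM in controls, 607 to 1442 CPM in non-responders, 318 to 635 CPM in stable tumours and 262 to 504 CPM in responders. Over 8 macrophage markers it was 558 to 989.5 CPM in controls and 765 to 3432 CPM across the anti-CTLA-4 tumours. Mean sums in controls, non-responders, stable tumours and responders were 17.5, 108, 198 and 173 CPM for 8 T cell markers and 4.44, 16.3, 41.4 and 41.5 CPM for 7 neutrophil markers. They were 4782, 10117, 12044 and 9563 CPM for 7 fibroblast markers and 194, 64.3, 30.9 and 17.2 CPM for 7 erythroid markers, in the same order. Of the neutrophil genes 1 was at 0 in all controls, and of the erythroid genes 1 in all responders. The part of these cell types in the results below was not tested.

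The genes did not follow a single order over the 4 groups. Car9, Pgk1, Ldha and Pdk1 were highest in controls, and in responders and stable tumours they lay below every control. How many of all genes tested keep groups apart in this way was not counted, here or below. Vegfa instead had its highest mean in responders, and Adm was lowest there. Slc2a1, Egln3 and Ndrg1 were not called in any of the 6 comparisons between groups. The tumour-by-tumour plot shows these levels.

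**Figure D1:**
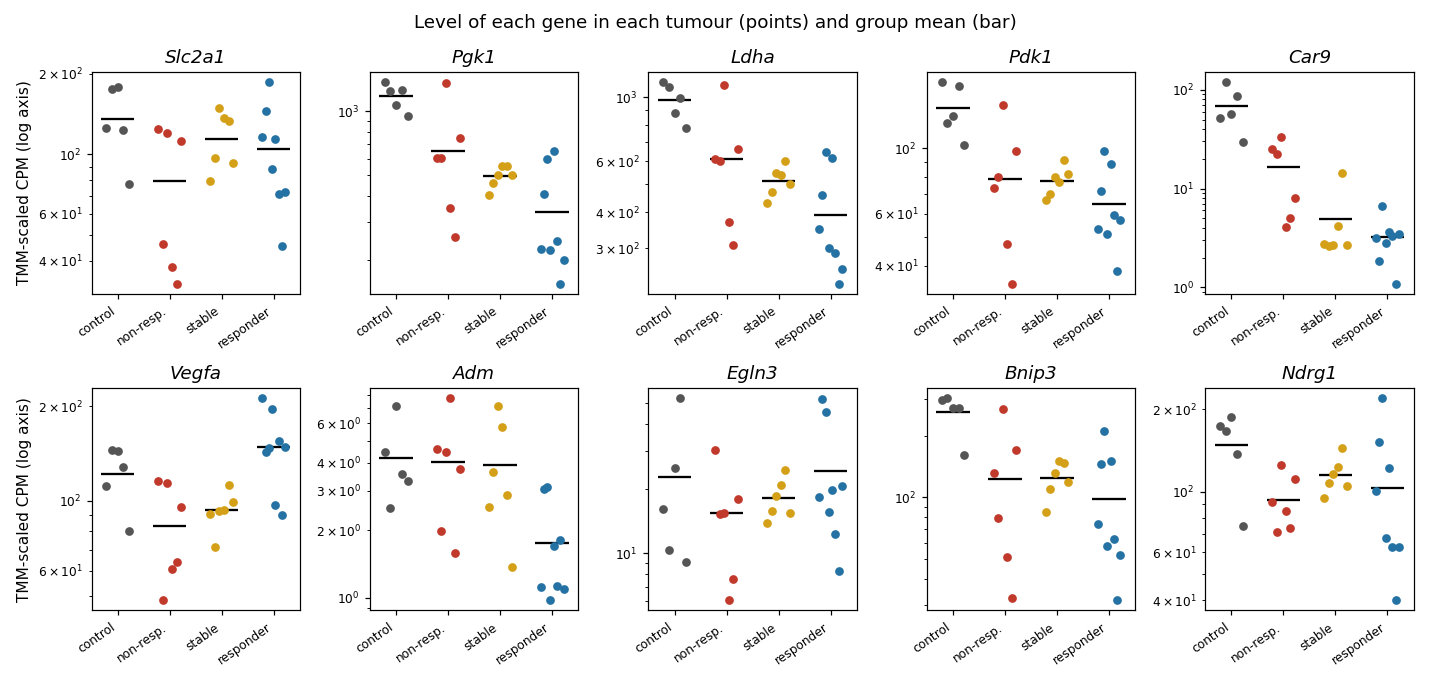
Each point is 1 tumour and each bar a group mean, as TMM-scaled CPM on a log axis, for 5 controls, 6 non-responders, 6 stable tumours and 8 responders. All responders and stable tumours lie below all controls for Pgk1, Ldha, Pdk1 and Car9, while the Vegfa mean is highest in responders.

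Car9 (ENSMUSG00000028463.14, GRCm38 chromosome 4, 43506966 to 43513729, plus strand) encodes carbonic anhydrase IX, a membrane enzyme that helps tumour cells handle acid and a widely used marker of hypoxia. In the 5 controls it was at 52.1, 120.0, 57.3, 86.1 and 29.7 CPM. Non-responders ran from 4.13 to 33.4 CPM with a median of 15.2 CPM, stable tumours from 2.63 to 14.3 CPM with a median of 2.72 CPM, and responders from 1.08 to 6.71 CPM with a median of 3.21 CPM. Every stable tumour and every responder was below every control, and 5 of 6 non-responders were as well. The non-responders themselves fell apart into 3 tumours at 22.5 to 33.4 CPM (non-responders 1, 2 and 3) and 3 at 4.13 to 8.03 CPM. In the same tumours the melanocytic marker sum was 3698 to 14062 CPM in the first 3 and 726 to 1239 CPM in the other 3. An antisense gene that overlaps Car9, Gm12454, had 1.98% as many counts, and reads of the pair cannot be told apart where counting ignored strand.

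Pgk1 (ENSMUSG00000062070.12, chromosome X, 106187100 to 106203699, plus strand) encodes phosphoglycerate kinase, an ATP-forming step of glycolysis. It was at 1377, 1254, 1067, 1265 and 956 CPM in controls. It ran from 256 to 1359 CPM in non-responders (median 604), from 404 to 554 CPM in stable tumours (median 501) and from 154 to 648 CPM in responders (median 235). Only non-responder 3 among the anti-CTLA-4 tumours reached the control range. Processed pseudogenes named after Pgk1 held at most 0.44% of its counts, so little of its level could have been split with them.

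Ldha (ENSMUSG00000063229.15, chromosome 7, 46841475 to 46855627, plus strand) encodes the lactate dehydrogenase subunit that favours making lactate from pyruvate. Controls were at 1129, 1083, 885, 995 and 784 CPM. Non-responders ran from 309 to 1100.0 CPM (median 607), stable tumours from 431 to 601 CPM (median 519) and responders from 226 to 645 CPM (median 326). The pattern was that of Pgk1, with non-responder 3 again the exception within the control range.

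Pdk1 (ENSMUSG00000006494.11, chromosome 2, 71873224 to 71903858, plus strand) encodes a kinase that inhibits pyruvate dehydrogenase and so holds pyruvate back from the mitochondrial cycle. Controls were at 168, 121, 129, 162 and 102 CPM. Non-responders ran from 34.7 to 140.5 CPM (median 76.4), stable tumours from 66.8 to 91.0 CPM (median 78.3) and responders from 38.4 to 97.8 CPM (median 58.4). The 3 anti-CTLA-4 groups overlapped, and only non-responder 3 entered the control range.

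Slc2a1 (ENSMUSG00000028645.11, chromosome 4, 119108711 to 119137983, plus strand), which encodes the glucose transporter GLUT1, overlapped in all 4 groups. Its means were 136 ± 42.0 CPM in controls (SD, n = 5), 79.2 ± 44.4 CPM in non-responders (SD, n = 6), 115 ± 28.3 CPM in stable tumours (SD, n = 6) and 105 ± 45.5 CPM in responders (SD, n = 8). The range within non-responders was wider than any difference between means, with non-responders 1, 3 and 6 at 113 to 125 CPM and non-responders 2, 4 and 5 at 32.7 to 46.3 CPM.

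Vegfa (ENSMUSG00000023951.17, chromosome 17, 46016993 to 46032369, minus strand) encodes the main secreted growth factor for blood vessels. It was at 111, 145, 144, 129 and 80.5 CPM in controls, from 48.4 to 116 CPM in non-responders (median 79.9), from 71.5 to 113 CPM in stable tumours (median 93.3) and from 90.3 to 212 CPM in responders (median 148). In 6 of 8 responders it was above every non-responder and every stable tumour. The 2 exceptions were responder 7 at 90.3 CPM and responder 5 at 97.0 CPM. Responder 5, the responder with a protein-coding share of 87.0%, had the highest Pgk1 of its group at 648 CPM. Responders 1 and 4, with the lowest shares, had the highest Vegfa at 212 and 195 CPM. Responder 7, with the next lowest share at 62.0%, had the lowest Vegfa of the group. Any tie between share and Vegfa within responders was not tested.

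Adm (ENSMUSG00000030790.15, chromosome 7, 110627661 to 110629820, plus strand) encodes adrenomedullin, a peptide that dilates vessels and supports endothelium. Controls were at 4.47, 2.51, 7.20, 3.56 and 3.31 CPM. Non-responders ran from 1.58 to 7.77 CPM (median 4.11), stable tumours from 1.37 to 7.19 CPM (median 3.27) and responders from 0.978 to 3.11 CPM (median 1.42). Responders were at the low end, with 6 of 8 below every control. Counts behind the responder values were 5 to 58, so single responders are imprecise.

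Bnip3 (ENSMUSG00000078566.8, chromosome 7, 138890836 to 138909519, minus strand) encodes a mitochondrial protein that promotes removal of mitochondria under low oxygen. Controls were at 297, 304, 273, 272 and 160.5 CPM, non-responders from 32.1 to 271 CPM (median 106), stable tumours from 85.1 to 151 CPM (median 125) and responders from 31.5 to 209.8 CPM (median 68.5). Stable tumours and controls did not overlap, and 7 of 8 responders were below every control.

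Egln3 and Ndrg1 complete the set. Egln3 (ENSMUSG00000035105.5, chromosome 12, 54178981 to 54203860, minus strand) encodes an oxygen-sensing prolyl hydroxylase that is itself a HIF target, and had means of 22.6 ± 17.9 CPM in controls (SD, n = 5), 15.4 ± 8.61 CPM in non-responders (SD, n = 6), 18.1 ± 3.94 CPM in stable tumours (SD, n = 6) and 24.0 ± 15.9 CPM in responders (SD, n = 8). Ndrg1 (ENSMUSG00000005125.13, chromosome 15, 66929318 to 66969640, minus strand), a stress-response gene induced by hypoxia, had means of 148 ± 44.7, 93.1 ± 21.2, 115 ± 17.4 and 104 ± 59.6 CPM in the same order of groups (SD). Their groups overlapped throughout, and the highest tumours were found in different groups, control 4 (52.6 CPM) and responder 2 (52.1 CPM) for Egln3 and responder 3 (219.8 CPM) for Ndrg1.

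The next question was whether the genes moved together from tumour to tumour once group means were removed. For each of 45 pairs, log2 CPM values were centred on the group mean, correlated over the 25 tumours and tested by 100000 permutations within groups, with p adjusted over the 45 pairs. Of these pairs, 31 had a correlation with an adjusted p under 0.05. All 28 pairs that did not include Vegfa or Adm were among them, against 2 of the 9 pairs with Vegfa and 1 of the 9 with Adm. These counts are for Pearson r: by Spearman's rho, Slc2a1 with Car9 (adjusted permutation p = 0.0502) and Car9 with Ndrg1 (adjusted permutation p = 0.0935) missed the threshold. The share of pairs drawn from all genes that would pass it was not counted. Whether the genes of this set moved together more than other genes did was therefore not tested.

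Pgk1, Ldha, Pdk1 and Bnip3 formed the tightest block, with Pearson r from 0.93 to 0.98. For Pgk1 and Ldha r was 0.98 and Spearman's rho 0.95 (permutation p = 1e-05 for both, the smallest that these permutations can give; adjusted p = 4.5e-05 and 5e-05). Without responders 7 and 8, the tumours farthest from the median of Pgk1 before centring, r was still 0.98. Tumours far from their own group mean could stay in, here and for the like values below. For Pgk1 and Bnip3 r was 0.96 and rho 0.94 (permutation p = 1e-05 for both; adjusted p = 4.5e-05 and 5e-05), with r = 0.95 without the same tumours. These are the genes whose promoters are printed above, together with Pdk1, whose promoters held no ACGTG. Any tie between motif and correlation was not tested.

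Vegfa was set apart from this block. For Pgk1 and Vegfa r was 0.225 and rho 0.20 (permutation p = 0.396 and 0.406; adjusted p = 0.415 and 0.425), and r was 0.099 without responders 7 and 8. Vegfa did correlate with Slc2a1, with r = 0.66 and rho = 0.62 (permutation p = 0.00516 and 0.00764; adjusted p = 0.00938 and 0.0156) and r = 0.62 without non-responders 4 and 5. Slc2a1 in turn followed Bnip3 closely, with r = 0.91 and rho = 0.90 (permutation p = 1e-05 for both; adjusted p = 4.5e-05 and 5e-05) and r = 0.87 without the same non-responders. For Car9 and Adm r was -0.05 and rho -0.09 (permutation p = 0.834 and 0.693; adjusted p = 0.853 and 0.693), with r = 0.024 without controls 2 and 4. All points share the library of their tumour, so depth and composition act on both genes of a pair.

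**Figure D2:**
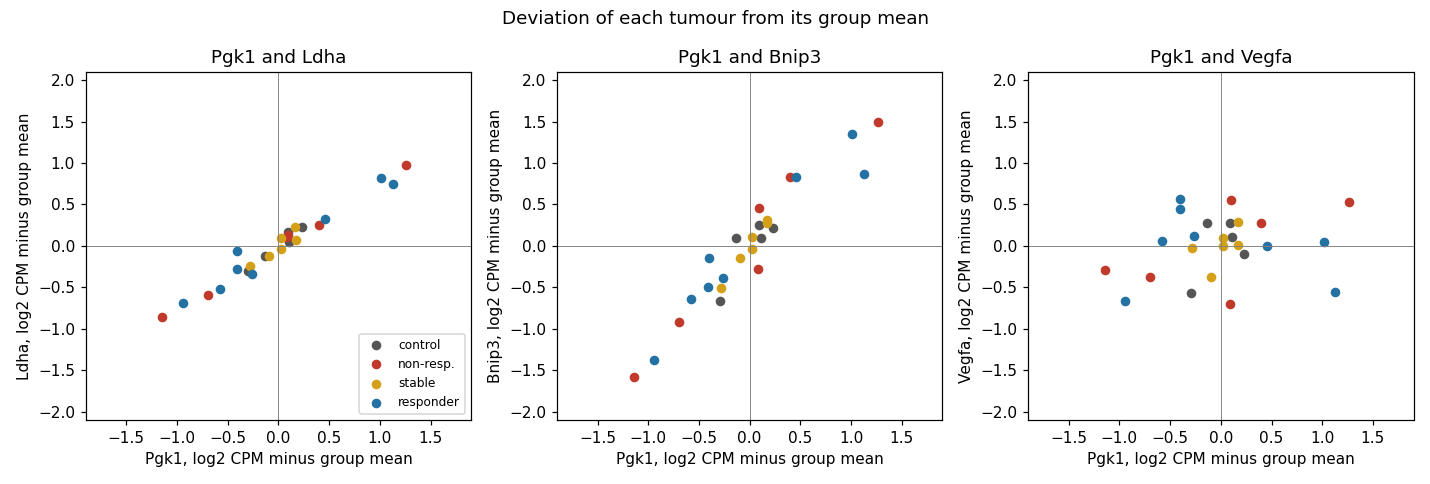
Each point is a tumour, placed by the deviation of its log2 CPM from its group mean for Pgk1 (x) and for Ldha, Bnip3 or Vegfa (y), coloured by group. Pgk1 follows Ldha (r = 0.98) and Bnip3 (r = 0.96), while its points with Vegfa are scattered (r = 0.225).

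The same tumours were therefore high or low for several genes. Non-responder 5 was among the 5 lowest of all 25 tumours for 6 of the 10 genes, and responder 7 for 8 of the 10. Control 3 was among the 5 highest for 9 of the 10. Averaging the standardised levels of the 10 genes gave 0.88 ± 0.457 in controls (SD, n = 5), -0.21 ± 0.834 in non-responders (SD, n = 6), -0.028 ± 0.323 in stable tumours (SD, n = 6) and -0.38 ± 0.735 in responders (SD, n = 8). Stable tumours were the most alike, from -0.42 to 0.37, whereas non-responders ran from -1.35 to 0.84 and responders from -1.54 to 0.79. Among controls, control 5 stood at 0.083 and the other 4 at 0.95 to 1.19.

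**Figure D3:**
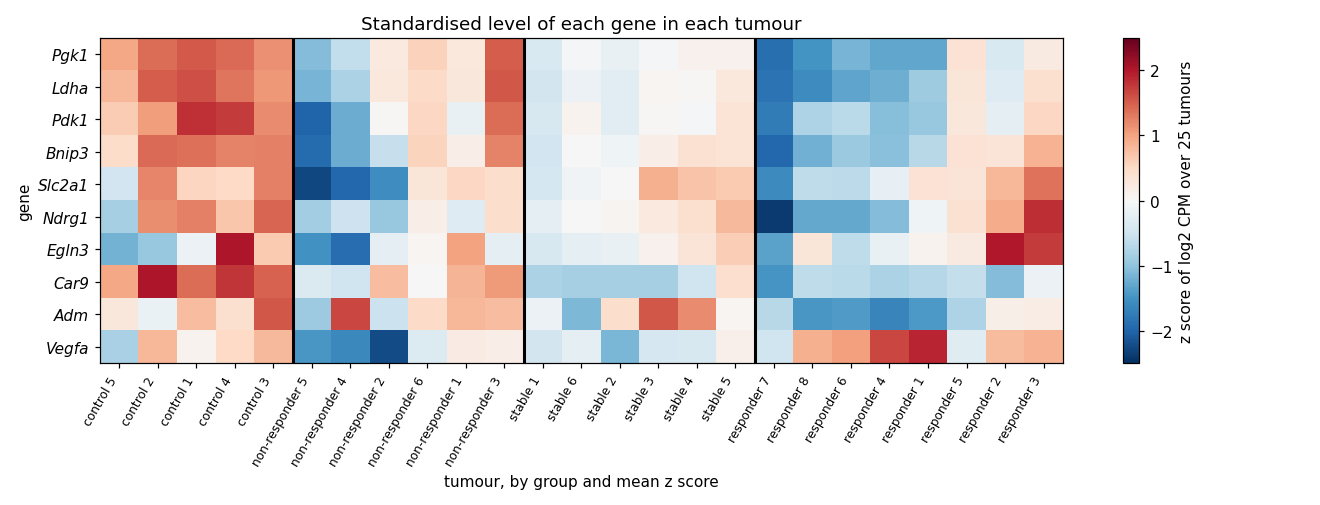
Colour gives the z score of log2 CPM over the 25 tumours for each gene (rows), with tumours (columns) sorted by group and by their mean z score. Responder 7 and non-responder 5 are low in most rows, controls are high in the upper rows, and the Vegfa row is high in responders 1 and 4, which are low for Pgk1 and Ldha.

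Genes outside the set that followed it most closely were sought among 13592 protein-coding genes with a mean of at least 1 CPM, by Pearson correlation with the mean standardised level over the 25 tumours. They were Ero1l (r = 0.97), which oxidises proteins in the endoplasmic reticulum, Pkm (0.94), the pyruvate kinase of glycolysis, Ak4 (0.94), a mitochondrial adenylate kinase, Ppme1 (0.94), a methylesterase of protein phosphatase 2A, and Egln1 (0.93), the main HIF prolyl hydroxylase. With group means removed, r was 0.96, 0.92, 0.93, 0.91 and 0.89 in that order. These values describe the highest of many ranked genes and carry no test. Ero1l, Pkm, Ak4 and Egln1 are also on the pathway lists below.

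Group differences were tested with edgeR's quasi-likelihood test over all 25 tumours, and a gene is called here when its Benjamini-Hochberg adjusted p over all 18031 genes is under 0.05. Fold changes are log2 of the first group over the second. The 3 comparisons with controls share the same 5 tumours, as do comparisons that share any other group, and are therefore not independent of each other.

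Responders were lower than controls in Pgk1, Ldha, Pdk1, Car9, Adm and Bnip3, so 6 of the 10 genes were called, all lower. Over all genes 65.0% were called, and 28.9% were called lower. The median log2 fold change was -1.16 over the 10 genes and 0.16 over all genes tested, or 0.04 over all genes when protein-coding genes alone were used. Car9 fell by 4.38 (SE 0.54, adjusted p = 6.41e-07), a 20.9-fold difference, and Pgk1 fell by 1.81 (SE 0.33, adjusted p = 6.15e-05). Over the 34 alternatives the Car9 value ran from -4.64 to -3.17. Ldha fell by 1.31 (SE 0.26, adjusted p = 0.000129) and Pdk1 by 1.08 (SE 0.24, adjusted p = 0.000499). For these 4 genes all 8 responders were below all 5 controls, and the calls held after adjustment for protein-coding share and without any single tumour. How many of all genes keep these groups apart was not counted. Bnip3 fell by 1.41 (SE 0.41, adjusted p = 0.00471) and Adm by 1.24 (SE 0.40, adjusted p = 0.00937). Those calls were lost after adjustment for that share, with values of -0.94 and -0.79. Vegfa (0.28, SE 0.22, adjusted p = 0.259), Slc2a1 (-0.38, adjusted p = 0.329), Egln3 (0.09, adjusted p = 0.859) and Ndrg1 (-0.52, adjusted p = 0.125) were not called. Ndrg1 passed the threshold without control 5 or responder 3, with values of -0.69 and -0.77.

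Stable tumours, whose protein-coding shares were like those of controls, were lower than controls in Pgk1, Ldha, Pdk1 and Car9. These 4 of 10 calls stand against 41.8% of all genes called (19.6% lower and 22.2% higher), with a median log2 fold change of -0.60 over the 10 genes and 0.02 over all genes. Car9 fell by 3.81 (SE 0.58, adjusted p = 1.5e-05), Pgk1 by 1.26 (SE 0.36, adjusted p = 0.00662), Ldha by 0.92 (SE 0.28, adjusted p = 0.00964) and Pdk1 by 0.81 (SE 0.26, adjusted p = 0.0141). All 6 stable tumours were below all controls for these genes, and every alternative kept the 4 calls. The number of all genes that keep these groups apart was not counted either. Bnip3 was at -1.08 (SE 0.45, adjusted p = 0.0556), with no overlap between the groups, and passed the threshold in 13 of 34 alternatives, among them DESeq2 and the fit without control 5 (-1.21). Adm did not differ detectably (-0.11, SE 0.42, adjusted p = 0.871).

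Non-responders were lower than controls in Car9 and Pdk1. These 2 calls among 10 genes compare with 13.9% of all genes called and 3.29% called lower, and the median log2 fold change was -0.73 over the 10 genes and 0.04 over all genes. Car9 fell by 2.08 (SE 0.54, adjusted p = 0.0115), a 4.22-fold difference that every alternative kept. Pdk1 fell by 0.79 (SE 0.26, adjusted p = 0.0437). Its call went when the fit omitted control 1, 2, 3 or 4, non-responder 1, 2, 4 or 5 or stable 2 or 6, and leaving out single tumours gave values from -1.04 to -0.64. It also went with no low-count filter (-0.87) and in a fit of only these groups (-0.82). All 10 fitted values were negative. Without non-responder 3, 6 genes were called, with Pgk1 (-1.21), Ldha (-0.93), Bnip3 (-1.49) and Vegfa (-0.67) added. That tumour was the only non-responder within the control range for Pgk1 and Ldha. Non-responder 6 also lay within it for Bnip3 (171 CPM), and non-responders 1 and 6 for Vegfa (116 and 95.6 CPM). The share of all genes called in that fit is not given here.

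Among the tumours given anti-CTLA-4, responders were compared with non-responders. Car9, Adm, Pgk1 and Ldha were lower and Vegfa was higher in responders, so 5 of 10 genes were called, against 48.9% of all genes (23.8% lower and 25.2% higher), a share near this background. Car9 fell by 2.31 (SE 0.50, adjusted p = 0.001), and the lowest non-responder lay above 7 of 8 responders. Vegfa was higher by 0.84 (SE 0.21, adjusted p = 0.00267), a 1.79-fold difference. Adm fell by 1.17 (SE 0.39, adjusted p = 0.0156), Pgk1 by 0.95 (SE 0.32, adjusted p = 0.017) and Ldha by 0.63 (SE 0.25, adjusted p = 0.0377). After adjustment for protein-coding share edgeR called 0 of the 10, and 1 (Car9) had an unadjusted p under 0.05, while DESeq2 without that covariate called 5. In that fit Car9 was at -2.04, Vegfa at 0.48, Adm at -0.75, Pgk1 at -0.45 and Ldha at -0.33. Without responders 1 and 4, Car9 and Vegfa remained called. Ldha lost its call without non-responder 1, 2, 3 or 6 or responder 1, 4, 6, 7 or 8 (-0.77 to -0.38 over the tumours left out), Pgk1 without non-responder 3 (-0.60) and Adm without non-responder 4 (-0.87). Pgk1 and Ldha also lost theirs in a fit of only these groups (-0.98 and -0.65), and Adm with limma on log2(RPKM + 1) (-0.62). Slc2a1 (0.41, SE 0.32, adjusted p = 0.299), Egln3 (0.66, SE 0.42, adjusted p = 0.2), Pdk1 (-0.28, adjusted p = 0.317), Bnip3 (-0.32, adjusted p = 0.517) and Ndrg1 (0.16, adjusted p = 0.661) were not called.

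Stable tumours and non-responders had like protein-coding shares, and here 1 of 10 genes was called, with 14.9% of all genes called (7.86% lower and 7.08% higher). Car9 fell by 1.74 in stable tumours (SE 0.53, adjusted p = 0.0304). The call was lost without non-responder 1, 2 or 3, without stable 1, 2, 3, 4 or 6, in the unfiltered table and in a fit of only these groups, and single tumours left out gave values from -2.44 to -1.39. The other 9 genes ranged from Slc2a1 at 0.54 (SE 0.34, adjusted p = 0.309) to Pgk1 at -0.40 (SE 0.34, adjusted p = 0.472).

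Between responders and stable tumours, 2 of 10 genes were called, with 38.2% of all genes called (20.5% higher and 17.8% lower). Vegfa was higher in responders by 0.67 (SE 0.21, adjusted p = 0.0163) and Adm fell by 1.13 (SE 0.39, adjusted p = 0.0253). Both calls were lost without responders 1 and 4 (0.47 and -0.97) and after adjustment for protein-coding share (0.30 and -0.70). Adm also lost its call without stable 3 or 4 or responder 8 (-1.30 to -0.87 over the tumours left out) and with limma on log2(RPKM + 1) or log2(RPKM + 0.1) (-0.55 and -0.83). Pgk1 was at -0.55 (SE 0.32, adjusted p = 0.169) and passed the threshold without responder 5 (-0.76). Car9 did not differ detectably (-0.57, SE 0.51, adjusted p = 0.38), so the order of its levels was control, non-responder, then stable tumours and responders with no call between them.

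**Figure D4:**
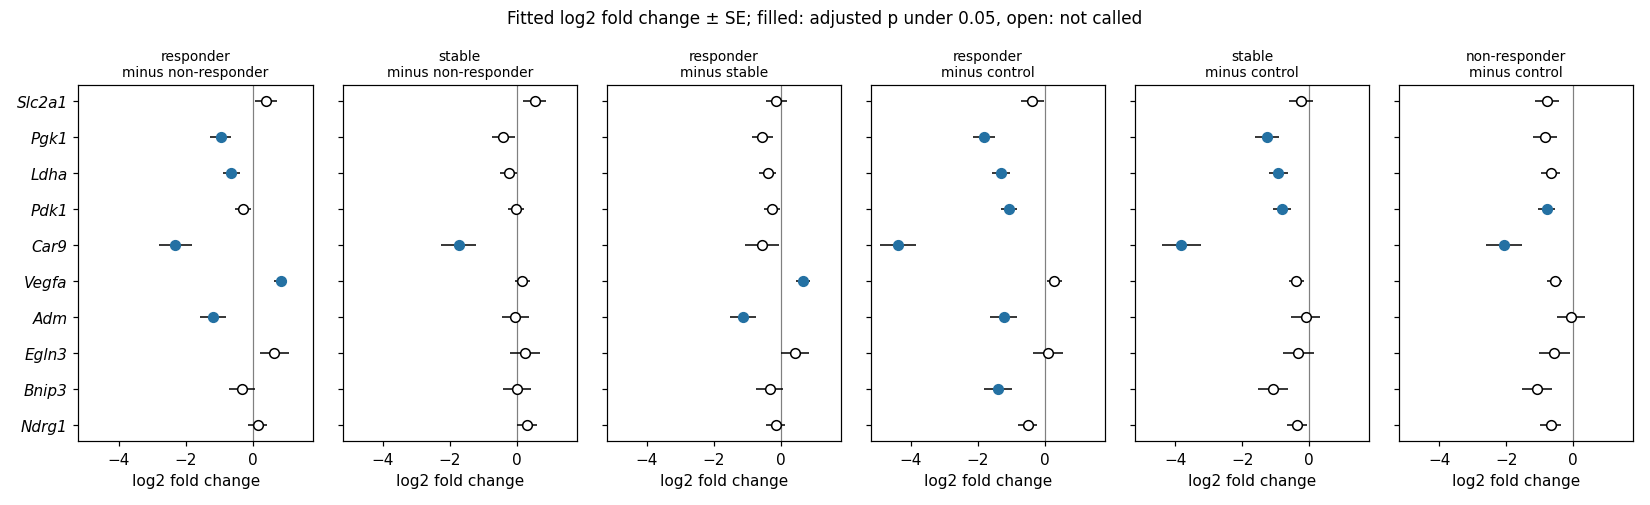
Points give the fitted log2 fold change of each gene in each of the 6 comparisons, with bars of 1 SE; filled points have an adjusted p under 0.05. In the comparisons of responders and stable tumours with controls, Car9, Pgk1, Ldha and Pdk1 are called lower, with Car9 at -4.38 and -3.81, and Vegfa is the only gene called higher in any comparison.

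Other genes of the pathway were taken from 4 lists. Of 24 tested genes of glycolysis and lactate metabolism (a 25th, Aldoa, had 2 rows and was not used), 17 were lower and 3 higher in responders than in controls, 16 lower and 3 higher in stable tumours than in controls, and 8 lower and 2 higher in non-responders than in controls. Over all genes, 28.9% were called lower and 36.1% higher in the first comparison, 19.6% and 22.2% in the second and 3.29% and 10.6% in the last. The list medians were -1.13, -0.73 and -0.56, against 0.16, 0.02 and 0.04 over all genes. The genes called higher were Slc2a3, Pfkfb3 and Pfkfb4 in the first 2 comparisons and Slc2a3 and Pfkfb4 in the last, named after their values were seen. Slc2a3 encodes a second glucose transporter, and Pfkfb3 and Pfkfb4 are isoforms of the regulatory enzyme phosphofructokinase-2. Hk2, a hexokinase, was not called in any of these 3 comparisons, with values of 0.15 in responders, 0.33 in stable tumours and -0.53 in non-responders, and was singled out after its values were seen.

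Pfkfb3, which makes the activator of phosphofructokinase, was at 14.0 to 25.4 CPM in controls, 15.0 to 40.6 CPM in non-responders, 56.7 to 90.1 CPM in stable tumours and 46.0 to 128 CPM in responders. It was higher in responders and in stable tumours than in non-responders, by 1.20 (SE 0.22, adjusted p = 0.000253) and 1.10 (SE 0.23, adjusted p = 0.00419), with no overlap between groups. Slc2a3, which encodes the glucose transporter GLUT3, common in white blood cells, exceeded its non-responder level in stable tumours by 1.06 (adjusted p = 0.0159), and Pfkfb4 by 0.79 (adjusted p = 0.0113). Ldhb, the other lactate dehydrogenase subunit, fell by 1.25 in responders against non-responders (SE 0.21, adjusted p = 0.000156), and Pdha1, a subunit of pyruvate dehydrogenase, by 0.93 (SE 0.18, adjusted p = 0.000453). The calls given here for Pfkfb3, Slc2a3, Pfkfb4 and Ldhb held in all 34 alternatives, while Pdha1 was at -0.53 and not called after adjustment for protein-coding share. Of the 24 genes, 10 were lower and 5 higher in responders than in non-responders, with 23.8% of all genes lower and 25.2% higher, and the list median was -0.43. The sum over 8 T cell markers was 26.5 to 213 CPM in non-responders and 160 to 248 CPM in stable tumours. Over 7 neutrophil markers it was 3.95 to 36.6 CPM and 29.5 to 59.6 CPM, so both ranges overlapped. In stable tumours 2 of 8 T cell markers and 1 of 6 tested neutrophil markers were called higher, with 7.08% of all genes called higher. The part of these cell types in the Slc2a3 difference was not tested.

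Of 8 tested genes for HIF subunits and oxygen sensors, those called were all lower in the first group of the comparison, and 5 were lower in responders than in controls (Hif1a, Arnt2, Vhl, Egln1 and Egln2, named after their values were seen). In that comparison 65.0% of all genes were called, so the share of this list called in either direction was near the background. Of all genes, 28.9% were called lower. Arnt2, a partner subunit of HIF, was lower than in non-responders both in responders (-1.01, SE 0.22, adjusted p = 0.000895) and in stable tumours (-1.06, SE 0.23, adjusted p = 0.00575). Vhl, which recognises hydroxylated HIF, fell by 0.35 in responders against non-responders (SE 0.12, adjusted p = 0.0203), a call lost after adjustment for that share (-0.16), in a fit of only these groups and without non-responder 3 (-0.29) or 6 (-0.29).

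Of 24 other HIF targets, 10 were lower and 2 higher in responders than in controls, 11 lower and 1 higher in stable tumours than in controls, and 3, all lower, were called in non-responders against controls, with list medians of -0.42, -0.55 and -0.60. Of all genes, 65.0%, 41.8% and 13.9% were called in these comparisons, and 28.9%, 19.6% and 3.29% were called lower, so the number called in either direction was not above the background in responders or in non-responders. The 3 lower in non-responders were Hilpda, Ero1l and Fam162a, named after their values were seen. Angptl4, a regulator of lipoprotein lipase, fell by 0.93 (adjusted p = 0.0197) and Mif, a cytokine, by 0.93 (adjusted p = 0.0219) in responders against non-responders. Both lost their calls after adjustment for that share (-0.48 and -0.43). Angptl4 was also lost without non-responder 2 (-0.79) or 4 (-0.82) and Mif without non-responder 3 (-0.61) and in a fit of only these groups (-0.95). Vhl, Angptl4 and Mif were each not called without responders 1 and 4, at -0.30, -0.77 and -0.76.

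The receptors for the secreted members differed among themselves. Of 13 tested ligands and receptors of the VEGF and adrenomedullin systems, 6 were lower and 2 higher in responders than in non-responders, with a list median of -0.72, where 23.8% of all genes were lower and 25.2% higher. Kdr, the main signalling receptor for VEGF on endothelium, had ranges of 42.5 to 56.6 CPM in controls, 35.9 to 94.4 CPM in non-responders, 16.0 to 38.1 CPM in stable tumours and 5.36 to 36.1 CPM in responders. It fell by 1.89 in responders (SE 0.27, adjusted p = 4.12e-05) and fell by 1.35 in stable tumours (SE 0.29, adjusted p = 0.00527) against non-responders. Vegfb fell by 1.16 (SE 0.29, adjusted p = 0.00266) and Flt4, the receptor of lymphatic vessels, by 1.19 (SE 0.36, adjusted p = 0.00971) in responders. Those calls were lost after adjustment for that share, at -0.97 and -1.12. Flt1, a receptor that also binds VEGF, exceeded its non-responder level in stable tumours by 1.00 (SE 0.24, adjusted p = 0.00791), as did the co-receptor Nrp2 by 0.68 (SE 0.18, adjusted p = 0.0158), a call lost in a fit of only these groups. Beside these values, 7 of 8 endothelial markers were lower in responders than in non-responders, with summed levels of 69.3 to 128 CPM against 137 to 266 CPM, and the part of endothelial content was not tested.

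**Figure D5:**
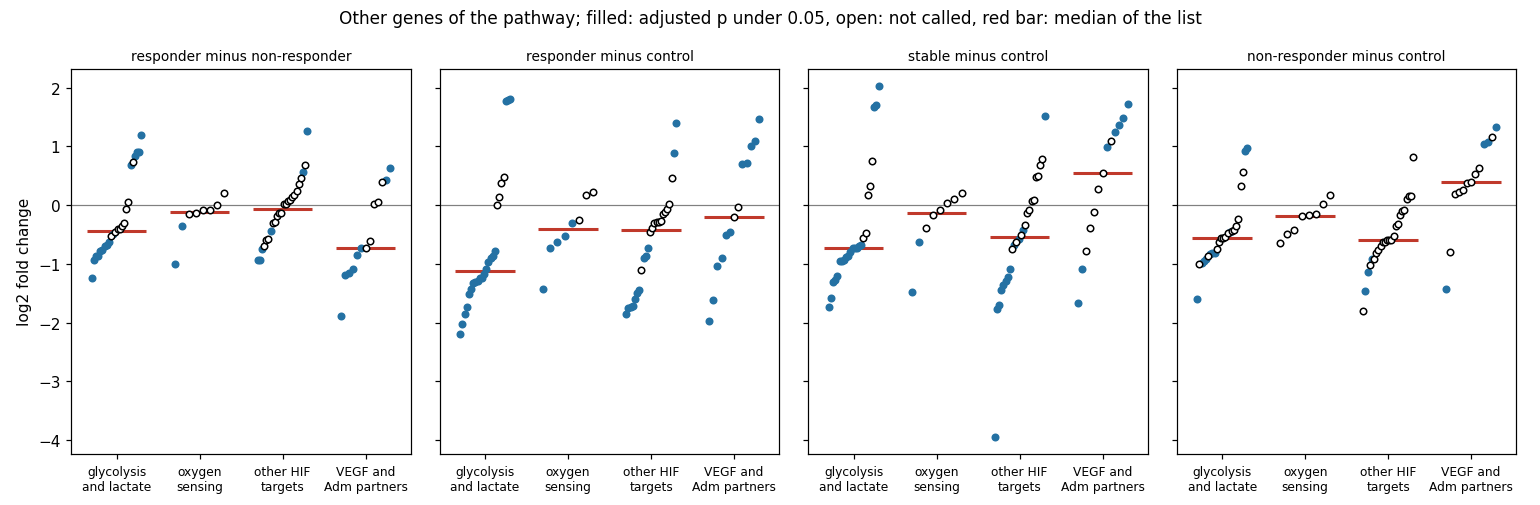
Each point is a gene of a pathway list, placed by its log2 fold change in 1 of 4 comparisons; filled points have an adjusted p under 0.05 and the red bar is the list median. The glycolysis list has medians of -1.13, -0.73 and -0.56 against controls in responders, stable tumours and non-responders, with a separate cluster of called genes above 0.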

How the data were processed

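RNA from 25 tumours was sequenced after a TruSeq Stranded Total RNA kit, per the labels' protocols, although the molecule label reads polyA RNA. Reads were handled with bcl2fastq 2.17, Trimmomatic, STAR 2.5.1, RSEM 1.2.22 and mm10, per the submitters' processing notes, and whether counting used strand is not given in the sources used here. Per gene, the authors deposited expected counts per gene (5.64% of values not whole), which were rounded, and RPKM, used for levels between genes and as an alternative. edgeR 4.0.16 (R 4.3.3) tested group means by its robust quasi-likelihood test with TMM scaling and filterByExpr, with Benjamini-Hochberg adjustment over 18031 genes. The test was checked on simulated counts in which few genes changed and library composition did not differ. That check cannot show how the test behaves where many genes or the protein-coding share differ. Alternatives were DESeq2 1.42.0, limma 3.58.1 on log2(RPKM + 1) and log2(RPKM + 0.1), other scalings and filters, each tumour left out, and adjustment for protein-coding share (as a linear term). Named pathway genes were the 3 called genes of a list with the largest change against non-responders in responders and in stable tumours, with a mean of at least 1 CPM. A gene that this rule names is not reported here. The members and lists were chosen with earlier results of these data known. Gene positions are from GENCODE M21, and each of the 25 count columns was most like its own RPKM column. No pair of replicates agreed within sampling noise. Untreated mice were not analysed here.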

Additional observations from a re-analysis of the deposited data

Results flagged for a closer look

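In 40 tests of a gene in a group, 3 tumours stood apart from the rest of their group by the gap to the nearest tumour over the range of the group, and chance flags about 1 in 20 groups. Stable 5 had Car9 at 14.3 CPM, with the nearest stable tumour at 4.22 CPM. Responder 3 had Car9 at 6.71 CPM, with the nearest responder at 3.64 CPM. Control 5 had Bnip3 at 160.5 CPM, with the nearest control at 272 CPM.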

How the results depend on the processing

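Each of the 60 fold changes of the 10 genes was recomputed under 34 alternatives. Of these 2040 values 1915 kept their direction and side of the threshold, 55 lost a call, 25 gained one and 45 changed sign, and 0 of the 20 called fold changes changed sign. No paired analysis was possible because replicate numbers were given in accession order and pair no tumours. The cause of these changes was not tested.

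After adjustment for protein-coding share, genes called among the 10 went from 5 to 0 in responders against non-responders and from 2 to 0 in responders against stable tumours, and calls over all genes from 8823 to 1810 and from 6891 to 0. Fold changes that changed sign there were Pdk1 at 0.031 and Bnip3 at 0.13 against non-responders, Pdk1 at 0.047, Bnip3 at 0.11 and Ndrg1 at 0.081 against stable tumours, and Vegfa at -0.094 against controls.

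Without responders 1 and 4, a setting chosen after seeing the data, 2 of the 10 genes were called in responders against non-responders and 0 in responders against stable tumours. Over all genes 7097 and 4018 were called there. In fits of only the groups compared, 3 were called in responders against non-responders, 0 in stable tumours against non-responders and 1 in non-responders against controls. Those fits called 6708, 2015 and 1559 of all genes. With no low-count filter, 0 were called in stable tumours against non-responders and 1 in non-responders against controls, with 1906 and 1934 calls over all genes. With limma on log2(RPKM + 1) and log2(RPKM + 0.1), 1 and 1 were called in responders against stable tumours, and 4 and 5 in non-responders against controls. Calls over all genes were 5518 and 5299 in the first comparison and 2038 and 2186 in the second. Where edgeR called 0 in stable tumours against non-responders, Car9 alone had an unadjusted p under 0.05 and DESeq2 called 1. For responders against stable tumours the unadjusted count was 0 after adjustment for share and 2 without responders 1 and 4, and DESeq2 called 2.

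Small fold changes that were not called changed sign elsewhere. In stable tumours against non-responders, Pdk1 was at 0.045 and 0.056 with limma at the larger and smaller pseudocount, and Bnip3 at -0.0045 with DESeq2, -0.0043 with RLE size factors and -0.059 with no filter. In responders against stable tumours, Car9 was at 0.0055 and 0.043 with limma. In responders against controls, Egln3 was at -0.096 with no filter and -0.0030 in the fit of only these groups.

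With each tumour left out in turn, 3 to 5 genes were called in responders against non-responders, 0 to 1 in stable tumours against non-responders, 1 to 3 in responders against stable tumours and 1 to 6 in non-responders against controls. Counts over all genes are not given for these fits. Fold changes that crossed 0 ranged from -0.57 to 0.079 for Bnip3 and -0.097 to 0.28 for Ndrg1 in responders against non-responders, and from -0.83 to 0.14 for Car9 in responders against stable tumours. In stable tumours against non-responders they ranged from -0.38 to 0.0097 for Ldha, -0.17 to 0.22 for Pdk1, -0.31 to 0.25 for Adm and -0.19 to 0.41 for Bnip3. Against controls, Egln3 ranged from -0.17 to 0.67 in responders, -0.52 to 0.26 in stable tumours and -0.86 to 0.021 in non-responders, and Adm from -0.37 to 0.17 in stable tumours and -0.36 to 0.22 in non-responders. Responder counts of 5 to 58 limit Adm.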
